A study of Rattus norvegicus with 12 samples.

Results

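The metabotropic glutamate receptors are described here in rat hippocampal neuron cultures whose activity had been silenced or raised for 48 h. A probe was taken as a member when the array's gene name for it was Grm2, Grm3, Grm4, Grm5, Grm6, Grm7 or Grm8. The rule found 7 genes and 11 probes, of 35709 gene names and 41012 probes on the array. Grm5 stands for group I with 1 probe, Grm2 and Grm3 for group II with 3 probes, and Grm4, Grm6, Grm7 and Grm8 for group III with 7 probes. Neurons were dissociated from the hippocampus of Sprague-Dawley rat embryos at E18.5, plated at high density and treated at 10 to 13 days in vitro. The CTL group received vehicle, labelled as 0.1% DMSO, the TTX group received the sodium channel blocker tetrodotoxin at 0.5 to 1 µM, and the BC group received the GABA-A receptor antagonist bicuculline (spelled bicuculine in the labels) at 20 µM. The methods name water as the vehicle of this experiment, and the source of the difference from the labels is not known. Each group had 4 one-color arrays of total RNA, 12 in all. Whether each array had its own culture is not given in the labels or the methods. The p-values therefore rest on the scatter among 4 samples per group, part or all of which may be technical.

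Metabotropic glutamate receptors are G protein-coupled receptors that tune transmission rather than carry synaptic current. Group I couples through Gq to phospholipase C and is known for postsynaptic signaling and for translation-dependent synaptic depression in the hippocampus. Groups II and III couple through Gi/o, lower cyclic AMP and mostly restrain transmitter release as presynaptic autoreceptors or heteroreceptors. Of group III, Grm7 and Grm8 are known at hippocampal terminals, while Grm6 is best known from the dendrites of retinal ON bipolar cells.

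All probes are 60 bases long, and their positions are those of the scanner files on rat build rn4. The results turn most on Grm8, and its pair of probes is shown because the probes are not separate targets. The first was designed on the RefSeq mRNA and maps in pieces within chr4:53976813-53983310, and the second was designed on the record of the splice form mGluR8b and maps in pieces within chr4:53976781-53983223, both in minus order. Splice forms of this receptor are known to differ in their C-terminal tails. Capitals mark the 18 bases that both probes hold.
Grm8, RefSeq mRNA probe: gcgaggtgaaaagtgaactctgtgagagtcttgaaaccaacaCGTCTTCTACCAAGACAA
Grm8, mGluR8b record probe: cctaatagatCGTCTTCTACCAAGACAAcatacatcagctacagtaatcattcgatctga
The Grm5 probe is shown as the sole probe of group I. It lies in 1 piece at chr1:144476829-144476888 in plus order.
Grm5 probe: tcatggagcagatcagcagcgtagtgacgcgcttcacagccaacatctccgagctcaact
The Grm6 probe that detected a signal lies at chr10:36436418-36436477 in plus order and has a GC content of 35.0%. Its last 30 bases are shown because Grm6 is the other receptor called with TTX and the call rests on this probe alone.
Grm6 RefSeq mRNA probe, last 30 bases: tttctttcgtcgttttttgttgttgtttcg

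Signals are given as log2 of the background-subtracted intensity, made comparable between arrays by quantile normalization. A probe's brightness depends on its sequence, so levels are compared between groups for 1 probe and never between probes. A gene is given by its brightest probe. It was called when limma, fitted to all 41012 probes, gave a Benjamini-Hochberg adjusted p under 0.05 with a difference of 1.5-fold or more in either direction. Of the 11 probes, 10 were well above background on all 12 arrays. The other was the second Grm6 probe, designed on a record of a truncated mGluR6 mRNA, which failed that criterion on every array.

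Group III was the group whose members were called against CTL. With TTX, Grm8 and Grm6 were lower, so 2 of the 7 receptors were called lower and 0 higher. Of all genes 4.18% were called in this comparison, 1.48% higher and 2.7% lower. With BC, Grm8 was higher, so 1 of 7 was called higher and 0 lower. Of all genes 3.6% were called, 2.13% higher and 1.46% lower. No group I or group II receptor was called by limma in either comparison with CTL, and none had an unadjusted p under 0.05, the lowest being 0.0711 for Grm5 with TTX. The median log2 fold change with TTX was 0.30 for group I, 0.11 for group II and -0.60 for group III, beside 0.01 for all genes. With BC the medians were -0.30, 0.00 and 0.14, beside -0.01 for all genes. Both comparisons share the CTL arrays.

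**Figure D1:**
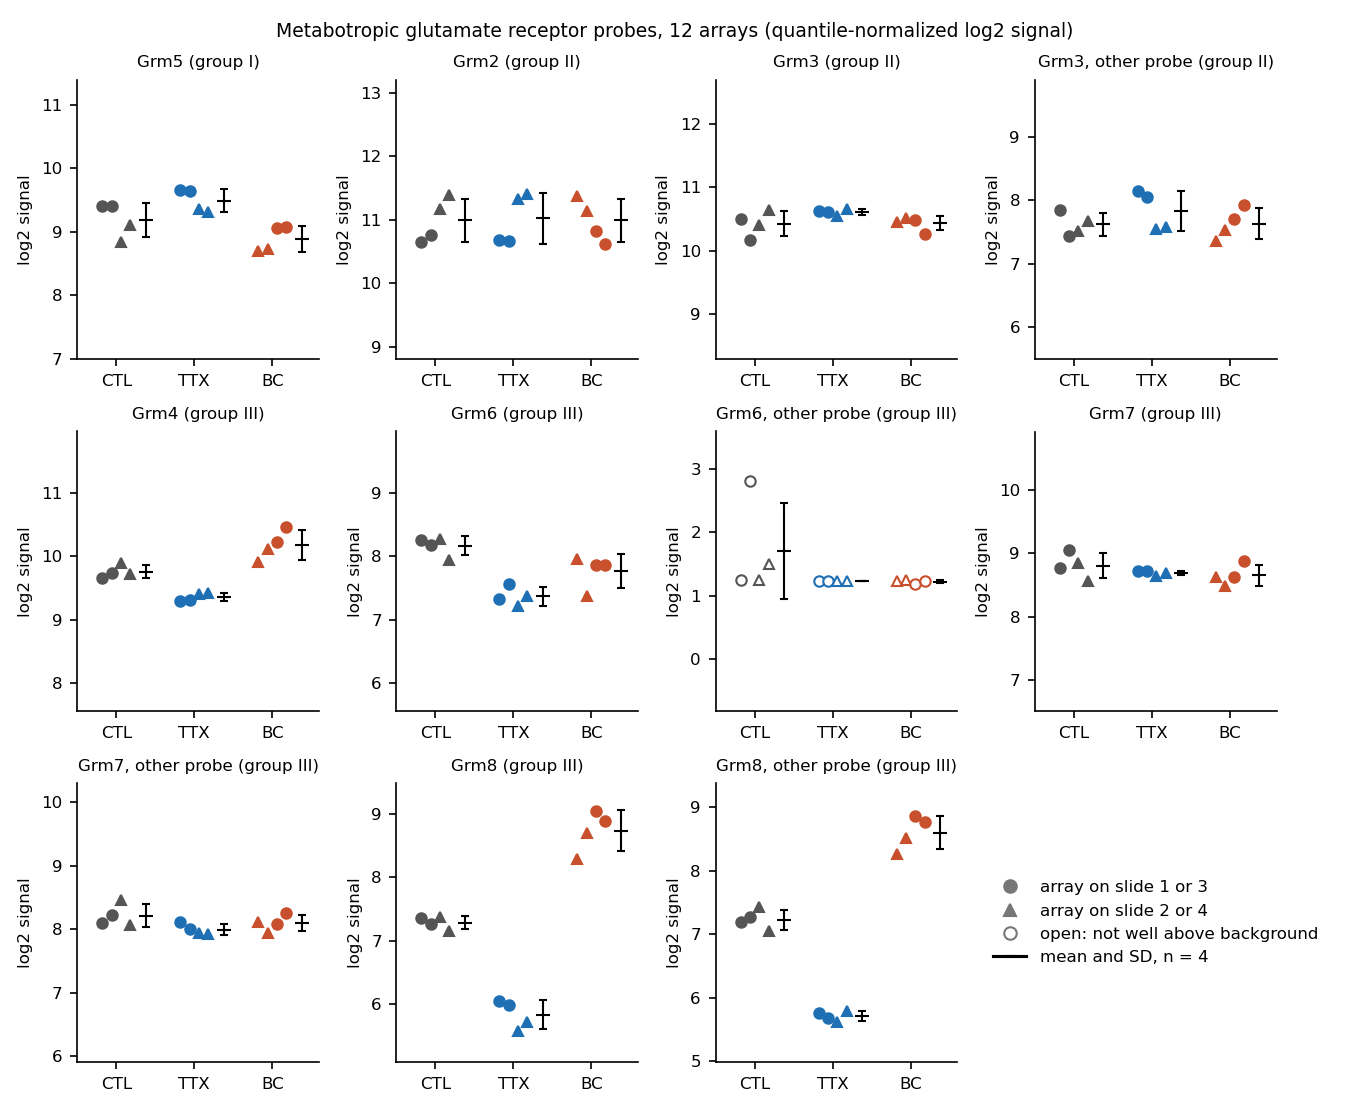
Log2 signal (y axis) of the 11 receptor probes on the 12 arrays, by treatment (x axis), with a span of 4.4 log2 units in every panel; circles are arrays on slides 1 and 3, triangles arrays on slides 2 and 4, open symbols are not well above background, and bars give the mean and SD of 4 arrays. Both Grm8 probes separate into 3 levels, while Grm2 splits by slide within every group.

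Grm8, a presynaptic group III receptor, was the member with the widest change, lower with TTX and higher with BC. On CTL replicates 1 to 4 its log2 signal was 7.35, 7.26, 7.37 and 7.15. On TTX replicates 1 to 4 it was 6.05, 5.99, 5.58 and 5.72, and on BC replicates 1 to 4 it was 8.29, 8.70, 9.04 and 8.88. Every TTX array was below every CTL array and every BC array above them, so that no groups overlapped. Groups did not overlap for 15.6% of all genes between TTX and CTL and for 13.6% between BC and CTL.

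The fitted log2 fold change of Grm8 was -1.45 ± 0.158 (SE, n = 4 against 4, limma adjusted p = 0.00029) with TTX, which is 0.366 of the CTL signal. With BC it was 1.44 ± 0.158 (SE, n = 4 against 4, limma adjusted p = 0.000321), a 2.72-fold higher signal. By size these were the 261st of 35706 changes with TTX and the 266th of 35704 with BC. TTX against BC gave a log2 fold change of -2.89 (95% interval -3.24 to -2.54, limma adjusted p = 6.6e-07), the 93rd of 35706. The size of these changes depended on the background correction. With the normexp correction they were -0.81 with TTX, 1.14 with BC and -1.95 between them, and in the deposited log2 values -0.83, 1.20 and -2.02. All were called.

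The mGluR8b record probe gave the same 3 levels. Its log2 signal was 7.18, 7.26, 7.43 and 7.05 on CTL, 5.76, 5.68, 5.61 and 5.79 on TTX, and 8.27, 8.51, 8.86 and 8.76 on BC arrays. The log2 fold change was -1.52 ± 0.127 (SE) with TTX and 1.37 ± 0.127 (SE) with BC, both called. The change was thus read by both probes, which share the 18 bases printed above, and the array gives no separate level of the splice forms.

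Grm6, the receptor of retinal ON bipolar cells, was lower with TTX. Its log2 signal was 8.25, 8.17, 8.27 and 7.94 on CTL arrays and 7.32, 7.56, 7.21 and 7.36 on TTX arrays, with no overlap. On BC arrays it was 7.95, 7.36, 7.86 and 7.86, where replicate 2 lay among the TTX values and replicate 1 within the CTL range. With TTX the log2 fold change was -0.80 ± 0.134 (SE, n = 4 against 4, limma adjusted p = 0.00393), 0.576 of the CTL signal and the 1573rd change by size. With BC it was -0.40 (95% interval -0.70 to -0.10, adjusted p = 0.109), and between TTX and BC it was also -0.40 (95% interval -0.69 to -0.10, adjusted p = 0.0556). BC thus gave no counterpart to the TTX change of Grm6 in the other direction, unlike in Grm8, although the difference between these genes was not tested. Without BC replicate 2 the change with BC was -0.27 (adjusted p = 0.191) and the change between TTX and BC was -0.53 (adjusted p = 0.00515), still short of the fold threshold. Because the second Grm6 probe gave values of only 1.18 to 2.81 with no array well above background, it gives no level to set beside the first.

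Grm4, another presynaptic group III receptor, was ordered as Grm8 was but over a narrower span. Its log2 signal was 9.67, 9.74, 9.90 and 9.72 on CTL arrays, 9.30, 9.32, 9.41 and 9.42 on TTX arrays and 9.91, 10.11, 10.23 and 10.47 on BC arrays. The 3 groups did not overlap, the lowest BC value lying just above the highest CTL value. Against CTL the log2 fold change was -0.39 ± 0.107 (SE, limma adjusted p = 0.0418) with TTX and 0.42 ± 0.107 (SE, limma adjusted p = 0.0346) with BC. Both passed the adjusted p and missed the fold threshold, at 0.761-fold and 1.34-fold. Between TTX and BC the difference was -0.82 (95% interval -1.05 to -0.58, limma adjusted p = 0.000249), 0.567-fold, and Grm4 was called. Over the 12 arrays Grm4 and Grm8 had a Pearson correlation of 0.948, the highest among the 21 pairs of receptors. The 12 points share the 3 treatments, and the value is a description.

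Grm7, the most widely distributed presynaptic receptor of group III, was not called in any comparison. Its log2 signal was 8.76, 9.05, 8.85 and 8.57 on CTL arrays, 8.72, 8.72, 8.65 and 8.69 on TTX arrays, and 8.63, 8.48, 8.63 and 8.89 on BC arrays. All groups overlapped. The log2 fold change was -0.11 (95% interval -0.35 to 0.13) with TTX and -0.15 (95% interval -0.39 to 0.09) with BC. The second Grm7 probe, designed on a record of the splice form 7b, gave -0.22 (95% interval -0.43 to 0.00, adjusted p = 0.227) and -0.11 (95% interval -0.33 to 0.10). These intervals lie inside the fold thresholds on both sides.

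**Figure D2:**
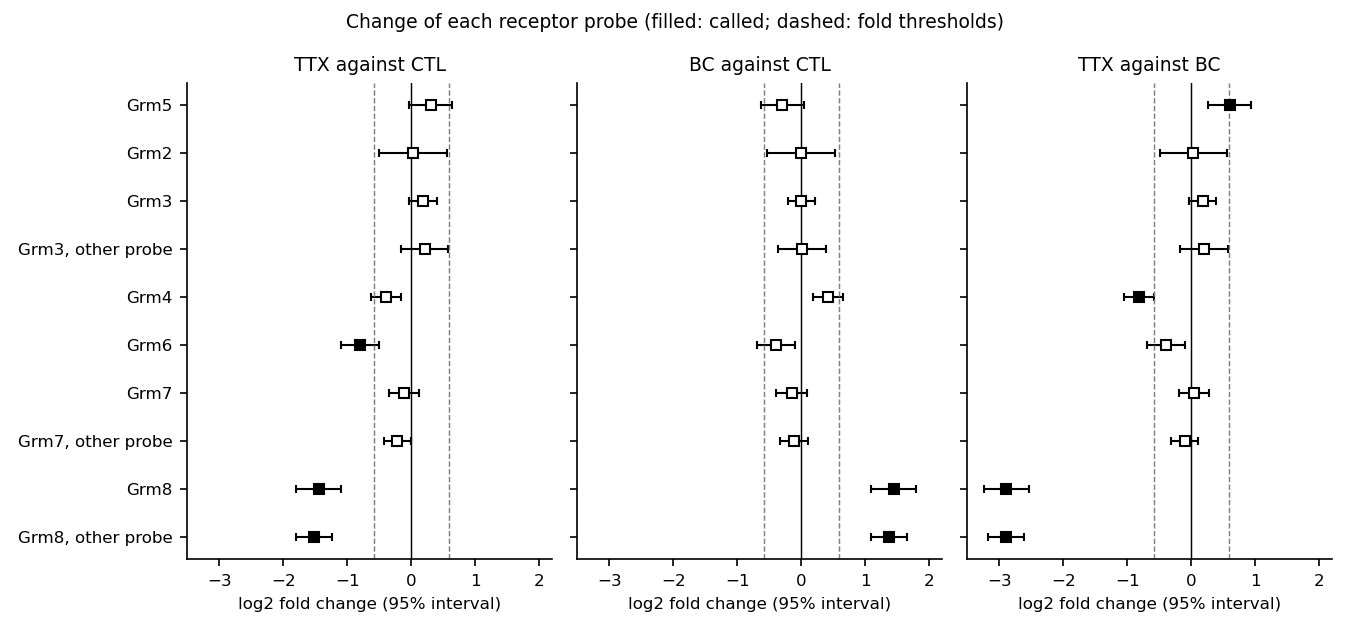
Log2 fold change (x axis) with its 95% interval for the 10 receptor probes above background, in each of the 3 comparisons; filled squares were called and dashed lines mark a 1.5-fold difference either way. Grm8 lies far outside the thresholds on opposite sides in the first and second panels, and against CTL the intervals of Grm2, Grm3 and Grm7 stay between the dashed lines.

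Grm5, the postsynaptic group I receptor, was ordered opposite to Grm4 and Grm8. Its log2 signal was 9.40, 9.40, 8.84 and 9.10 on CTL arrays, 9.65, 9.63, 9.35 and 9.31 on TTX arrays, and 8.70, 8.72, 9.06 and 9.07 on BC arrays. TTX and BC arrays each overlapped the CTL arrays but not each other. Against CTL the log2 fold change was 0.30 ± 0.151 (SE, adjusted p = 0.286) with TTX and -0.30 ± 0.151 (SE, adjusted p = 0.335) with BC, neither called. Between TTX and BC it was 0.60 ± 0.151 (SE, limma adjusted p = 0.0144), 1.51-fold, and Grm5 was called higher with TTX. This fold lay just above the threshold, and the call ended when TTX replicate 1 or 2 or BC replicate 1 or 2 was left out, with log2 fold changes of 0.54, 0.55, 0.54 and 0.54. It also ended with the normexp correction, at 0.56.

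Grm2, a presynaptic group II autoreceptor, had log2 signals of 10.65, 10.76, 11.16 and 11.38 on CTL, 10.68, 10.67, 11.33 and 11.41 on TTX, and 11.37, 11.14, 10.82 and 10.62 on BC arrays. Within every group the 2 arrays on slides 1 and 3 were lower than the 2 on slides 2 and 4. The log2 fold change was 0.03 (95% interval -0.50 to 0.56) with TTX and 0.00 (95% interval -0.53 to 0.53) with BC. These intervals leave the slides out. With slide as a block the SE was 0.0776 in both comparisons, against 0.239 without it, at the same log2 fold changes. Grm3, the group II receptor that is also known from glia, had log2 signals of 10.49, 10.16, 10.41 and 10.64 on CTL, 10.63, 10.60, 10.55 and 10.65 on TTX, and 10.44, 10.52, 10.48 and 10.27 on BC arrays. Its log2 fold change was 0.18 (95% interval -0.03 to 0.40) with TTX and 0.00 (95% interval -0.21 to 0.22) with BC. TTX and BC arrays of Grm3 did not overlap, but the difference was 0.18 with an adjusted p of 0.237. The second Grm3 probe was designed on the same mRNA record as the first but lies 1156137 bases from it on rn4. These positions were not checked against a transcript, so whether both are right is not known. The probes share no run over 4 bases and followed each other loosely over the 12 arrays (Pearson r = 0.321, a description). The second probe gave 0.21 (95% interval -0.16 to 0.58) with TTX and 0.01 (95% interval -0.36 to 0.38) with BC.

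Between TTX and BC, 3 of the 7 receptors were called, Grm5 higher with TTX and Grm4 and Grm8 lower. Of all genes 10.9% were called, 4.68% higher and 6.19% lower. The median log2 difference was 0.60 for group I, 0.11 for group II and -0.61 for group III, beside 0.02 for all genes. TTX and BC arrays did not overlap for Grm3, Grm4, Grm5 and Grm8, against 25.9% of all genes.

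The 12 arrays lay on 4 slides, and each slide held 1 array of each group. Arrays of different groups deviated together when both lay on slides 1 and 3 or both on slides 2 and 4, with correlations of 0.201 to 0.410 between their deviations from the group means over the probes, and apart otherwise, at -0.388 to -0.203. Within slides, Grm8 was lower with TTX on 4 of 4 slides by -1.65 to -1.21 and higher with BC on 4 of 4 slides by 1.14 to 1.69 in log2 signal. Grm6 was lower with TTX on 4 of 4 slides, at -0.91 to -0.69, and ranged from -0.91 to 0.01 with BC. Grm4 differences within slides were -0.48 to -0.31 with TTX and 0.19 to 0.73 with BC.

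Grm5 differed in the same direction on all slides. TTX exceeded CTL on 4 of 4 slides by 0.23 to 0.47, BC lay under CTL on 4 of 4 slides at -0.40 to -0.12, and TTX exceeded BC by 0.57 to 0.65. With slide as a block the limma adjusted p of Grm5 was 0.00939 with TTX and 0.0122 with BC, while the log2 fold changes stayed at 0.30 and -0.30, under the fold threshold. With slide as a block, Grm8 (adjusted p = 0.000225 with TTX and 0.000301 with BC) and Grm6 (adjusted p = 0.00726 with TTX) were called as before. When the 2 arrays of a group on each slide pair were averaged, with the slide pair as a block, only 1 receptor stayed called lower with TTX, Grm6 (adjusted p = 0.0457). Grm8 then had an adjusted p of 0.0534 with TTX and 0.0704 with BC, at the same log2 fold changes of -1.45 and 1.44. That fit, with 2 values per group, called 512 of 41009 probes with TTX and 0 of 41007 with BC, so no receptor was called with BC.

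**Figure D3:**
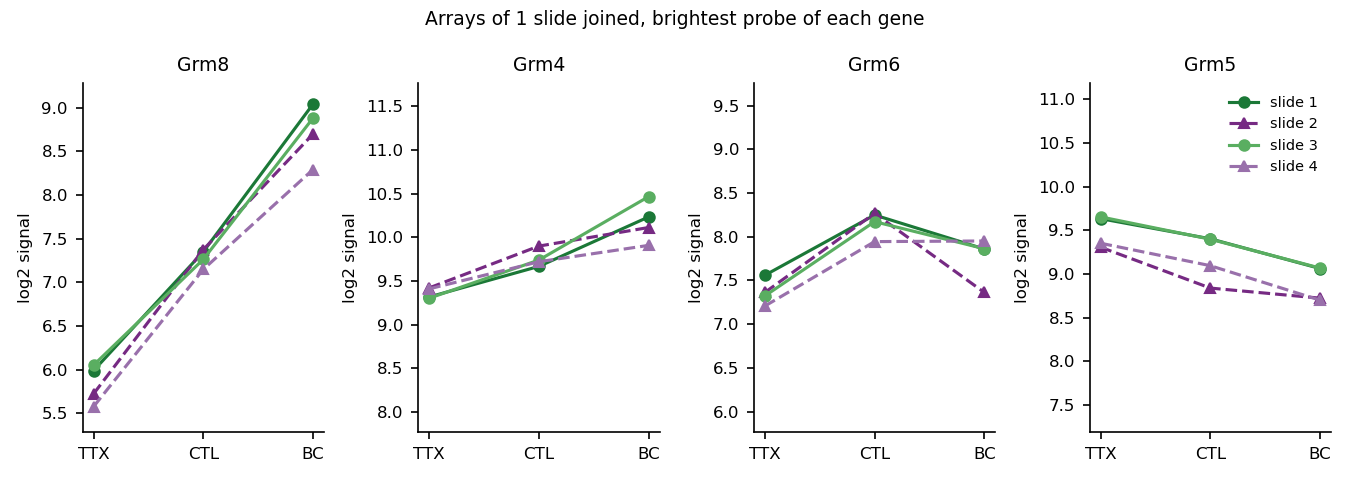
Log2 signal (y axis) of Grm8, Grm4, Grm6 and Grm5 by treatment (x axis, ordered TTX, CTL, BC), where each line joins the 3 arrays of 1 slide and every panel spans 4 log2 units. Lines for Grm8 and Grm4 climb from TTX to BC on all 4 slides, lines for Grm5 descend on all 4, and lines for Grm6 climb from TTX to CTL on all 4.

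The cell type markers put the cultures among neurons. All 6 neuronal markers were well above background on all arrays, and Rbfox3, the nuclear marker NeuN, was not called with TTX (log2 fold change -0.15) or BC (-0.01). Slc17a7, the vesicular transporter of most cortical glutamatergic neurons, had 0.18 and -0.29, neither called. Of the 5 glutamatergic markers measured, 1 was called higher with TTX and 0 were called with BC. The log2 fold changes of the 5 ranged from -0.06 to 0.59 with TTX and from -0.48 to 0.57 with BC. Between TTX and BC, 2 were called higher with TTX and 1 lower. Their summed linear signal, in which bright markers weigh most, was 24727 to 30136 on CTL arrays. It was 32628 to 36400 on TTX and 18164 to 22602 on BC arrays, in the order of Grm5 and without overlap. The part of these markers in the difference of Grm5 was not tested. The sum of the 6 neuronal markers was 187076 to 234467 on CTL, 198773 to 226607 on TTX and 165056 to 175761 on BC arrays, where BC lay below every CTL array. All 8 astrocyte markers were also above background, and Gfap, the astrocyte filament, had 0.00 and -0.06. Of 7 microglial markers, 4 were well above background on all arrays of each group, while Itgam and Aif1 were so on no array. GABAergic interneuron markers were lower with TTX, as Grm8 was: 8 of 9 were called lower (median log2 fold change -1.33). With BC 2 of 9, Npy and Vip, were called higher and 7 were not called (median 0.22, range -0.19 to 1.09). The summed linear signal of the 9 markers, in which bright markers weigh most, was 299827 to 353356 on CTL arrays. It was 115336 to 124862 on TTX and 405811 to 465494 on BC arrays. Gad1 and Gad2, which make GABA, had log2 fold changes of -1.56 and -1.33 with TTX, both called, and 0.22 and 0.38 with BC, neither called. Of 6 endothelial markers, 2 were well above background on all CTL arrays, 2 on all TTX arrays and 4 on all BC arrays. Cldn5, well above background on no TTX array, was called higher with BC (1.65). The other 5 were not called with BC, and the list ranged from -0.48 to 1.65. With TTX 0 of the 6 were called (range -0.93 to 0.44). In these bulk cultures fewer cells of a type and less RNA per cell cannot be told apart, and the part of the interneuron markers in the changes of Grm8, Grm6 and Grm4 was not tested.

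The genes whose signal followed Grm8 most closely over the 12 arrays, of 11446 named genes well above background, were Cd93 (r = 0.995), the neuropeptide gene Gal (r = 0.993) and the calcineurin regulator Rcan2 (r = 0.992). Their log2 fold changes were -0.98, -1.60 and -1.04 with TTX and 0.94, 1.56 and 0.94 with BC. For Grm6 they were Rasd2, a small GTPase (r = 0.946), Grin3b, an NMDA receptor subunit (r = 0.939), and the Eph receptor gene Epha10 (r = 0.939). These had -0.83, -1.13 and -0.86 with TTX and -0.33, -0.44 and -0.45 with BC. The genes were chosen for this likeness, so their changes are a description, and the arrays behind each correlation share 3 treatments.

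Pathway genes downstream of the receptors were mostly not called, as holds for all genes, of which 4.18% were called with TTX and 3.6% with BC. Of the Gq coupling and effector genes that serve group I, 0 of 13 measured were called with TTX or with BC (medians 0.01 and 0.12). For Itpr3 of this list, the other probe was called lower with TTX (-0.86, limma adjusted p = 0.0151). The brightest Itpr3 probe had -0.44 (limma adjusted p = 0.0999). An unadjusted p under 0.05 was reached by 8 of the 13 genes with TTX and by 5 with BC. The log2 fold changes over the list were -0.45 to 0.48 and -0.16 to 0.56. Over all genes that p was reached by 21.5% with TTX and 19.0% with BC. Of 20 Gi/o coupling and effector genes that serve groups II and III, only Adcy8 was called, with medians of 0.02 and -0.01. Adcy8 encodes a calcium-stimulated adenylyl cyclase, which makes the cyclic AMP that these receptors restrain. It was lower with TTX, at -1.75 ± 0.122 (SE, limma adjusted p = 1.8e-05), and higher with BC, at 0.75 ± 0.122 (SE, limma adjusted p = 0.00348), in the directions of Grm8. Of 15 scaffolds and binding partners, among them the Homer and Shank genes that tether group I receptors, 0 were called with TTX or with BC (medians 0.00 and -0.04), and 2 and 4 had an unadjusted p under 0.05.

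Of the genes that work with Grm6 in the retina, 0 of 7 measured were called with TTX or BC, with medians of -0.25 and -0.22, and 1 had an unadjusted p under 0.05 in each comparison. Of 10 genes of translation-dependent depression, 2 were called lower with TTX, Arc, which drives AMPA receptor endocytosis (-1.24 ± 0.13, SE), and Ptpn5, the tyrosine phosphatase STEP (-0.67 ± 0.0812, SE). With BC 1 was called lower, the elongation factor 2 kinase gene Eef2k (-0.68 ± 0.169, SE), whose other probe had -0.30 and was not called. Of 9 genes of glutamate uptake and vesicular loading, Slc17a6, a vesicular glutamate transporter, was higher with TTX (0.59 ± 0.0689, SE) and Slc1a6, a plasma membrane transporter, was lower with BC (-2.03 ± 0.205, SE). The medians of these lists were 0.03 and 0.25 with TTX and -0.12 and -0.05 with BC.

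**Figure D4:**
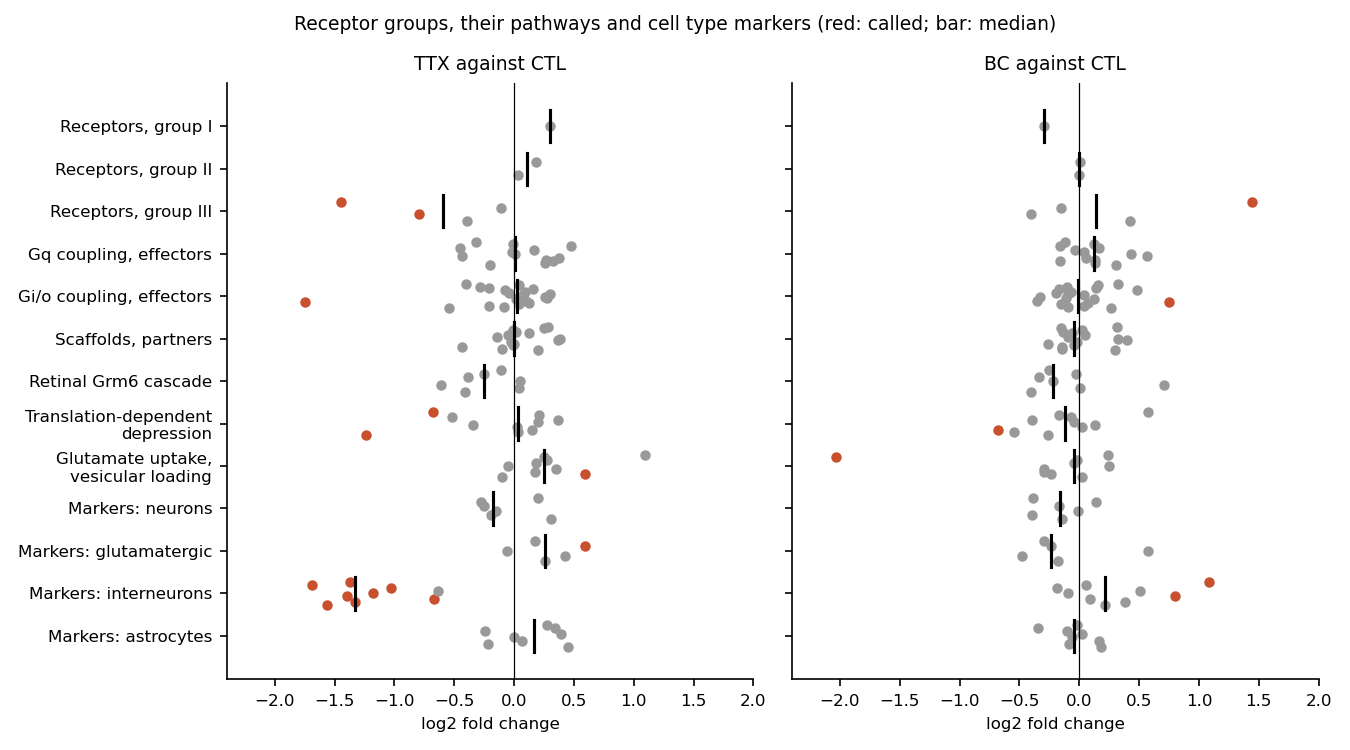
Log2 fold change (x axis) of each gene in the receptor groups, the pathway lists and 4 marker lists, for TTX against CTL (left) and BC against CTL (right); red points were called, grey points were not, and bars mark each list's median. The called receptors lie in group III, and 8 of 9 interneuron markers are red on the left.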

How the data were processed

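Total RNA of 12 samples was hybridized to one-color Agilent whole rat genome arrays. The authors deposited scanner intensities from Feature Extraction 9.5.1.1, background-subtracted and not normalized between arrays, with probe positions on rn4. The authors also deposited log2 values, quantile-normalized, which rank as the median intensity with no background subtracted. BC replicate 2 has 1131 empty values there. Here the processed intensities were taken to log2 without outlier spots (13 to 40 per array) and quantile-normalized. Between 74.1% and 78.1% of probes per array were well above background, and arrays correlated at 0.982 to 0.995. R 4.3.3 and limma 3.58.1 were used to fit a mean for each group with moderated variances over 12 arrays, leaving 9 residual degrees of freedom, and adjusted over all probes. Probes were named by accession (10813), symbol (5133) or synonym (3484) through RefSeq's GRCr8 gene list, and 21582 kept the file's name. The brightest probe stood for a gene. The number of arrays limits the precision. Slides come from the array barcodes. The members, lists and alternatives were chosen with earlier results of these data known. Named beside the receptors were, per pathway list, up to 3 called genes against CTL, 5 cell markers, and the 3 genes most correlated with each receptor called against CTL. Dagla, Elfn2, Gpr179, Lrit3 and Tbr1 of the lists were not matched. Same-numbered TTX and CTL arrays lay on slides of 1 pair and deviated together, with correlations of 0.281 to 0.379. Any arrays of different groups on 1 slide pair had 0.201 to 0.410, so these correlations do not show that replicate numbers pair arrays. Same-numbered BC and CTL arrays lay on different slide pairs and deviated apart (-0.347 to -0.244). The same-numbered array was the closest array of another group for 2 of 12 arrays. A single marker gene is not reported here. The code was tested on simulated data. Python 3.11.15, pandas 2.3.3, numpy 2.4.6, matplotlib 3.10.9 and the R package data.table (version 1.17.8) were used.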

Additional observations from a re-analysis of the deposited data

Results flagged for a closer look

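Of 33 sets of 4 arrays (11 probes in 3 groups), 2 held an array far from the other 3 by Dixon's test at the 95% level, where chance gives about 1 in 20 sets. The Grm6 RefSeq mRNA probe read 7.36 on BC replicate 2 in log2 signal, while the nearest of the other BC arrays read 7.86. The second Grm6 probe read 2.81 on CTL replicate 2 and 1.50 on the nearest CTL array, where all 12 arrays were too dim to count as above background.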

How the results depend on the processing

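Each of the 7 receptors was recomputed under 26 alternatives, of which 1, a block on the replicate number in a fit of the compared groups alone, was added last, after seeing the data. Grm6 with TTX and Grm4 and Grm8 between TTX and BC were called in 26 of 26. Grm8 with TTX was called in 25 and with BC in 24.

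With slide pairs averaged and as a block, receptors called lower with TTX numbered 1 and called higher with BC 0, where that fit called 0 of 41007 probes with BC. With no fold threshold TTX had 3 receptors called lower and BC had 2 called higher. With the replicate number as a block over all arrays no call changed (Grm8 adjusted p = 0.00522 with TTX). With that block and only 2 groups, Grm8 with BC (adjusted p = 0.0548) and Grm5 between TTX and BC (0.118) lost the call, leaving 0 in each count. The Grm5 call, the 1 receptor higher with TTX than with BC, also fell to 0 with normexp, the median signal (0.57) and the deposited log2 values (0.56), and leaving out 1 array gave 0 to 1. Leaving out CTL, TTX or BC arrays moved no other count of calls.

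Log2 fold changes that turned sign were those of receptors not called and near 0. Leaving out 1 array gave -0.10 to 0.16 for Grm2 with TTX, -0.13 to 0.13 for Grm2 and -0.085 to 0.076 for Grm3 with BC, and -0.10 to 0.16 for Grm2 and -0.018 to 0.12 for Grm7 between TTX and BC. Normalization to the 75th percentile gave 0.00055 for Grm2 and -0.0077 for Grm3 with BC. The deposited log2 values gave 0.013 for Grm2 with BC and -0.0041 between TTX and BC, and the mean of all probes gave -0.032 for Grm7 between TTX and BC. The cause of these shifts was not tested.

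Precision is limited by signal over background: Grm6 rests on 1 probe, and the second Grm6 probe gives no level.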
